A study of Arabidopsis thaliana with 8 samples.

Results

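AT3G26630, AT2G19280 and AT4G04370 are nuclear genes of the pentatricopeptide repeat (PPR) family, compared here between the Arabidopsis petc mutant and wild type (WT). They were picked as PPR genes that differ between these 2 groups, and their probes are those that the platform annotation pairs with exactly 1 of these genes. Each gene has 1 such probe, so 3 of the 3439 probes on the array are described, or 3 of the 691 genes that have a probe of their own. Because the choice rests on the contrast of petc and WT, that contrast is given below as a description of the 3 genes, with no p-value. The calls of a fit over the whole table are stated beside the share of all probes called, and nothing is read from them.

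PPR proteins are built from tandem copies of a short helical repeat and bind single-stranded RNA, each repeat contacting a base. In land plants the family is very large, and nearly all of its members work in chloroplasts or mitochondria, where they guide the splicing, editing, cleavage, stabilisation and translation of organellar transcripts. Many chloroplast members are needed for single plastid transcripts of the photosynthetic complexes. The sources used here name no RNA target for any of the 3 genes, and no sequence of the genes, proteins or probes was used here.

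Total RNA came from plants of the ecotype Landsberg, 4 arrays from WT and 4 from the mutant petc, in which the cytochrome b6f complex of the thylakoid membrane is without its Rieske iron-sulfur protein. Both groups share the ecotype. The sources used here give neither tissue, age nor growth conditions, and they do not say what the mutant allele is or whether replicates are separate plants, so the spread between replicates may be technical. PETC itself is not analysed here, and no check of the labels by the mutated gene was made.

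The deposited values are intensities in arbitrary units, with 2978 to 3009 probes above 0 per array. The arrays fell into sets by replicate number: Spearman's rho across probes was 0.982 to 0.990 between arrays of one group within numbers 1 and 2 or within numbers 3 and 4, and 0.933 to 0.948 between these sets. Between petc and WT it was 0.929 to 0.948 within a set and 0.881 to 0.910 across sets. By this measure the sets of one group were about as unlike as petc and WT within a set. The number of arrays limits the precision, and each value is therefore given by array and, where it matters, by set.

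AT3G26630 was higher in petc. In WT its deposited intensity was 1.14, 0.894, 1.16 and 1.23 in replicates 1 to 4, and in petc it was 3.81, 3.47, 3.89 and 3.72. Every petc array was far above every WT array, and the lowest array of each group was replicate 2. The means were 1.11 ± 0.145 in WT and 3.72 ± 0.184 in petc (SD, n = 4), a ratio of 3.37. Taken by replicate number, the ratio of petc to WT lay between 3.03 and 3.88.

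On the quantile-normalised log2 scale, where the fold changes were computed, AT3G26630 differed by 1.57 ± 0.12 (petc minus WT, SE, n = 4 per group), which is 2.98-fold. This SE, like those of the other genes, takes the 4 arrays of a group as independent. With the arrays of one group and set treated as correlated it was 0.21. The lowest petc value and the highest WT value were 1.37 apart. With the values as deposited the log2 difference was 1.76, so the scaling moved its size and not its direction. The relative spread was wider in WT, with a coefficient of variation of 13.2%, than in petc, with 4.95%. The WT spread came mostly from replicate 2, and without that array the log2 difference was 1.49.

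AT2G19280 was lower in petc. Its intensity in WT was 3.42 in replicate 1, 3.42 in replicate 2, 2.96 in replicate 3 and 3.02 in replicate 4, and in petc it was 1.63, 1.48, 1.59 and 1.55. The groups did not overlap, and within WT the arrays numbered 1 and 2 were brighter than those numbered 3 and 4, a split the petc arrays did not show. The means were 3.21 ± 0.248 in WT and 1.56 ± 0.0629 in petc (SD, n = 4), so petc was at 0.488 of WT. The ratio by replicate number lay between 0.434 and 0.536.

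The log2 difference of AT2G19280 after normalisation was -1.27 ± 0.10 (petc minus WT, SE, n = 4 per group), and the groups were 1.07 apart at their nearest values. The set of numbers 1 and 2 gave -1.39 and the other set -1.15. As deposited it was -1.03. In the pairs of arrays with one number the difference ran from -1.48 to -1.11, its sign being fixed because the groups did not overlap. The SE was 0.14 with the arrays of one group and set treated as correlated.

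AT4G04370 differed little between the groups, although it was picked as a gene that differs in petc. Its intensity in WT was 0.885, 0.911, 0.855 and 0.758 in replicates 1 to 4, and in petc it was 1.01, 1.08, 0.924 and 0.966. All petc arrays were above all WT arrays, but the lowest petc array, replicate 3, was close to the highest WT array, replicate 2. The means were 0.852 ± 0.0671 and 0.993 ± 0.0646 (SD, n = 4), a ratio of 1.17.

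After normalisation the log2 difference of AT4G04370 was 0.24 ± 0.10 (petc minus WT, SE, n = 4 per group), and the groups were only 0.02 apart at their nearest values. By replicate number the difference ran from 0.12 in number 3 to 0.37 in number 4. As the groups did not overlap, its sign was fixed. Each set by itself gave 0.24. With the arrays of one group and set treated as correlated the SE was 0.16. The SD of the log2 value was 0.13 in WT and 0.11 in petc, below the median over all tested probes of 0.24 in WT and 0.21 in petc. So were those of AT3G26630, 0.22 and 0.05, and of AT2G19280, 0.14 and 0.06. A choice of genes that differ steadily favours a small SD, so nothing is read from this.

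**Figure D1:**
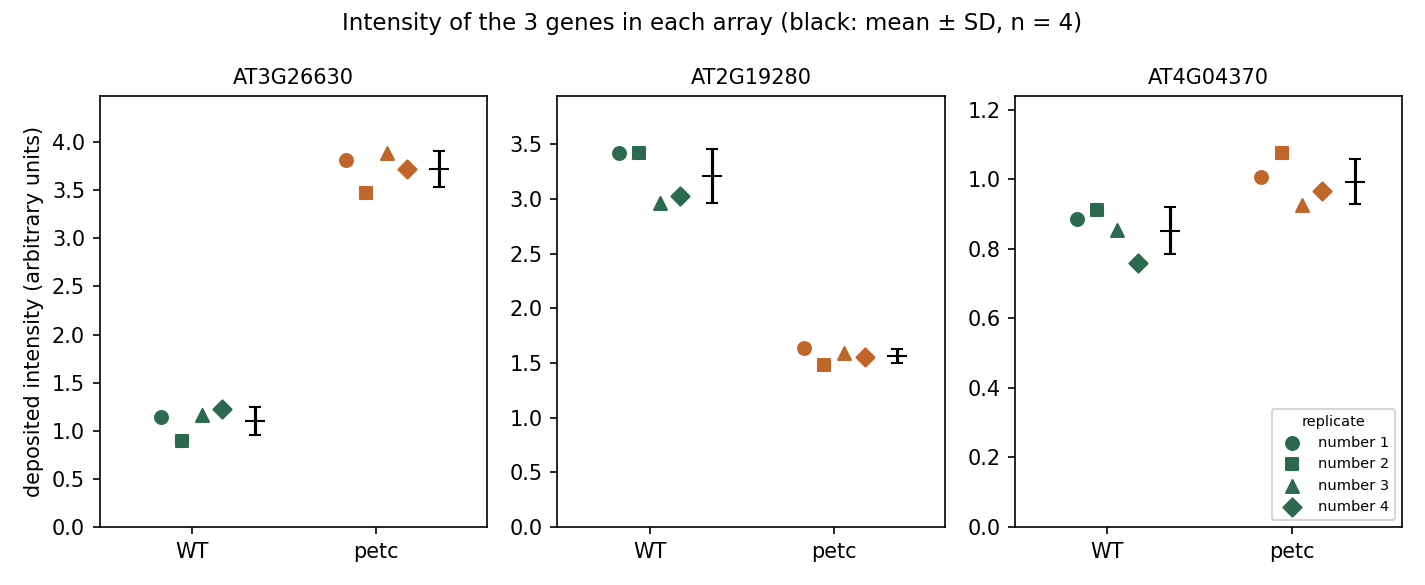
Deposited intensity in arbitrary units of AT3G26630, AT2G19280 and AT4G04370 in the 4 WT (green) and 4 petc (orange) arrays, with marker shapes for the replicate numbers and black bars for the mean ± SD (n = 4). Each panel has its own axis from 0: AT3G26630 lies between 3.47 and 3.89 in petc against at most 1.23 in WT, AT2G19280 between 1.48 and 1.63 against at least 2.96, and AT4G04370 between 0.924 and 1.08 against at most 0.911.

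The 3 genes differed in opposite directions and by very unequal amounts. Among the 2947 probes compared, AT3G26630 ranked 74 by the size of its log2 difference, AT2G19280 ranked 155 and AT4G04370 ranked 1675. Larger differences than theirs were seen in 2.48%, 5.23% and 56.8% of the probes. Among the 595 single-gene probes compared, the ranks were 11, 31 and 327.

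In a limma fit over the whole table, with Benjamini-Hochberg adjustment over all 2947 probes and a threshold of 0.05, AT3G26630 was called higher and AT2G19280 lower, and AT4G04370 was not called. The same fit called 27.9% of all probes and 25.0% of the single-gene probes, 11.1% higher and 13.9% lower in petc (66 and 83 probes, or 84 and 66 with the values as deposited). With the replicate number as a block, which the likeness of same-numbered arrays allows, all 3 genes were called, 2 higher and 1 lower, but so were 45.9% of the single-gene probes. When the arrays of one group and set were averaged, leaving 2 values against 2, limma called none of the 3 genes and no other probe. The set was not a block in this fit, so differences between sets stayed in its error. With so few values, the lack of calls is not read as a lack of difference. An unadjusted p below 0.05 was seen for 584 of the 2962 probes compared in this setting. Group ranges without overlap were common too: all 3 genes had them, and so did 30.3% of the single-gene probes. Since the genes were chosen on this contrast, their calls are read no further.

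**Figure D2:**
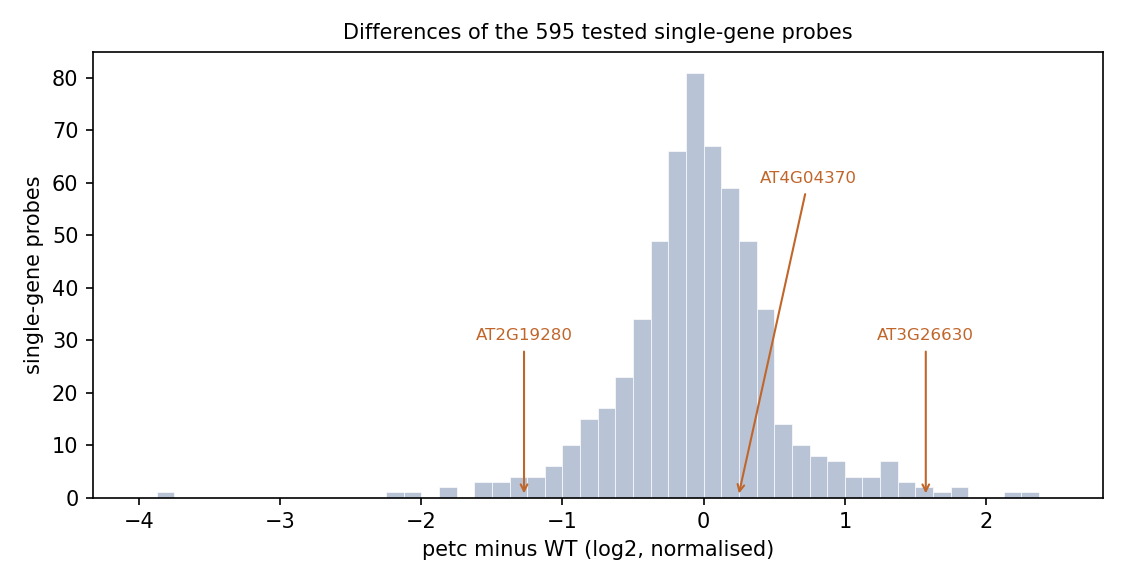
Number of single-gene probes (vertical axis) by log2 difference, petc minus WT, for the 595 probes compared, with arrows at the 3 genes. AT3G26630 at 1.57 and AT2G19280 at -1.27 lie in the tails, and AT4G04370 at 0.24 lies in the main body of the distribution.

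The values were also set apart by replicate set. The sets were recognised from the likeness of the arrays, and their meaning is not in the labels. The genes were chosen on the same arrays, and a choice of genes that differ steadily favours a small spread between replicate numbers, so these values too are a description, and each SE measures only the spread between arrays of one set. For AT3G26630 the difference between petc and WT was 1.69 in the set of numbers 1 and 2 and 1.46 in the other set, a change of -0.24 ± 0.19 (SE). For AT2G19280 the change of the difference between sets was 0.24 ± 0.11 (SE). For AT4G04370 it was 0.00097 ± 0.13 (SE).

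The level itself, averaged over petc and WT, was also set side by side for the sets, as a description. The log2 difference, numbers 3 and 4 minus numbers 1 and 2, was 0.14 ± 0.10 for AT3G26630, -0.11 ± 0.06 for AT2G19280 and -0.17 ± 0.06 for AT4G04370 (SE). Without WT replicate 2 the value of AT3G26630 was 0.04 ± 0.06 (SE).

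**Figure D3:**
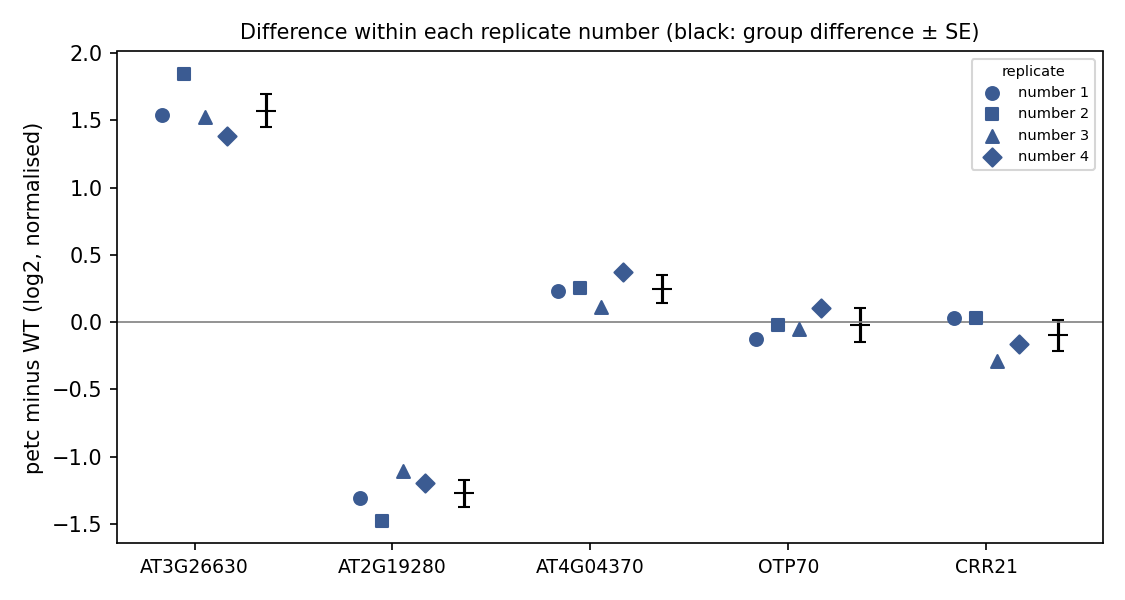
Log2 difference, petc minus WT, within each replicate number (blue markers, 1 per number) and over the groups (black, ± SE, n = 4 per group) for the 3 genes and for OTP70 and CRR21. The pairs of AT3G26630 lie between 1.38 and 1.85, those of AT2G19280 between -1.48 and -1.11 and those of AT4G04370 between 0.12 and 0.37, while those of OTP70 and CRR21 lie on both sides of 0.

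The array holds a further probe paired with AT3G26630, but this probe is paired with AT2G42920 as well, and its value cannot be given to either gene. Its intensity was 0.116, 0.0815, 0.0984 and 0.0947 in WT and 0.120, 0.101, 0.111 and 0.143 in petc. The groups overlapped, and the log2 difference was 0.13 ± 0.14 (petc minus WT, SE, limma adjusted p = 0.584). This probe was dim, at 0.21 to 0.34 of the array median of values above 0. The single-gene probe of AT3G26630 lay at 2.31 to 9.89 times that median. Probe sequences were not used here, so cross-hybridisation among related genes of this large family was not tested for any probe.

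Other PPR genes with a single-gene probe were recognised by their symbols alone, namely OTP70, CRR21 and OTP85. Of the 2 that could be compared limma called 0, too few to set against the 25.0% of all single-gene probes. OTP70, which acts in the splicing of the plastid rpoC1 transcript, had 0.683, 0.659, 0.548 and 0.536 in WT and 0.614, 0.634, 0.550 and 0.597 in petc. These ranges overlapped, and the log2 difference was -0.02 ± 0.13 (petc minus WT, SE, limma adjusted p = 0.915). In both groups the values of OTP70 in numbers 3 and 4 were below those in numbers 1 and 2, with a mean log2 difference of -0.28 between the sets.

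CRR21, which is needed for editing of the plastid ndhD transcript, had 0.325, 0.302, 0.418 and 0.379 in WT and 0.329, 0.311, 0.367 and 0.357 in petc. The petc values lay within the WT range, and the log2 difference was -0.10 ± 0.12 (petc minus WT, SE, limma adjusted p = 0.601). OTP85, another editing factor of plastid transcripts, was listed at 0 in all 4 WT arrays and in petc replicates 3 and 4, with 5.81e-05 and 0.00298 in petc replicates 1 and 2. It had too few values for a comparison. Of the 5 PPR genes compared, 2 were called, against 25.0% of the single-gene probes, and both are among the genes chosen on this contrast, so the count restates that choice. The RefSeq gene table gives the family's name for none of the measured genes, so further PPR genes on the array are not counted here.

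The single-gene probes whose profile over the 8 arrays was most like that of each gene were found by the root mean square difference of the normalised log2 values, each probe centred on its own mean. Because these profiles hold the contrast of petc and WT, the likeness is a description, and the arrays share their sets. For AT3G26630 the nearest of 586 probes was AT2G22890, at a root mean square difference of 0.19, followed by AT2G21720 at 0.24 and AT2G37510 at 0.24, where the median probe was at 0.86. The intensity of AT2G22890 was 0.539 to 0.624 over the WT arrays and 1.46 to 1.57 over the petc arrays, and its log2 difference was 1.31 ± 0.09 (petc minus WT, SE, n = 4 per group).

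For AT2G19280 the nearest probe was AT3G09050 at 0.15, then AT1G30700 at 0.17 and PRA1.B6, a gene for a prenylated RAB acceptor, at 0.19, with the median probe at 0.70. AT3G09050 had a mean intensity of 1.14 ± 0.0121 over the WT arrays and 0.559 ± 0.0287 over the petc arrays (SD, n = 4), without the split of the WT arrays by set that AT2G19280 showed. PRA1.B6 had that split, with 8.81 and 8.32 in WT replicates 1 and 2 and 5.28 and 5.96 in replicates 3 and 4. Unlike AT2G19280, it was split in petc as well, with 4.29 and 4.05 in replicates 1 and 2. Replicates 3 and 4 of petc had 3.31 and 3.61. For AT4G04370 the nearest were AT3G16310 at 0.07, AT1G33250 at 0.08 and AT3G45770 at 0.08, with the median probe at 0.33. Among the 3 chosen genes it was 0.70 between AT3G26630 and AT4G04370, 0.77 between AT2G19280 and AT4G04370, and 1.44 between AT3G26630 and AT2G19280. These values mostly restate how unequal their differences between petc and WT were.

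The size of each difference was followed through other ways of scaling, filtering and grouping the arrays. AT3G26630 lay between 1.46 and 1.76 over 15 alternatives, AT2G19280 between -1.39 and -1.03, and AT4G04370 between 0.18 and 0.25. All 3 kept their direction in each of these and when any 1 array was left out. Several of the alternatives change only the SE or the probes fitted and return the same difference. As the group ranges did not overlap for any of the 3 genes, leaving out arrays could hardly turn the sign. Nothing is therefore read from the kept direction.

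**Figure D4:**
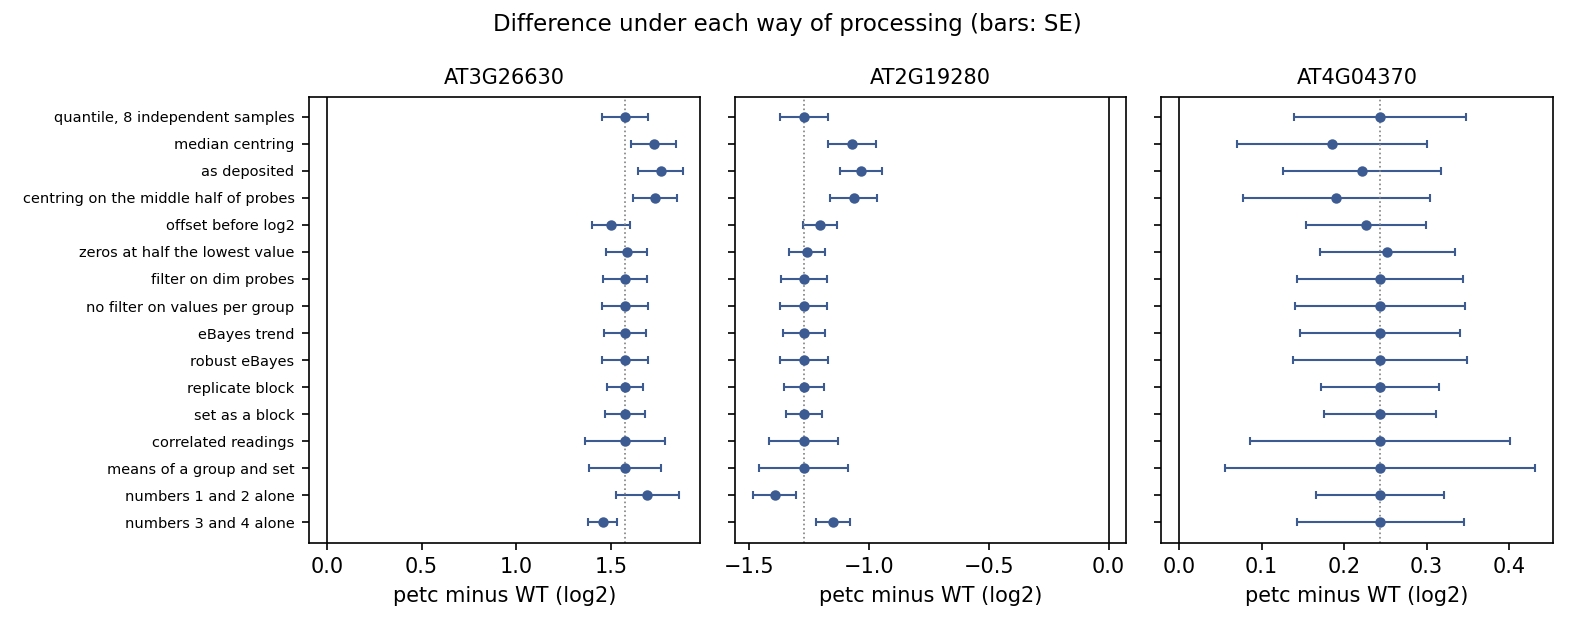
Log2 difference, petc minus WT (points, with bars for the SE), of the 3 genes under quantile normalisation with 8 independent samples, at the top and as the dotted line, and under 15 alternatives. No point crosses 0, and the points of AT2G19280 move towards 0 under the other scalings, to -1.07, -1.03 and -1.06.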

How the data were processed

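Expression arrays of 8 samples were used. The table deposited by the authors holds linear intensities, 1 per probe and array. The sources used here do not give their unit, background correction, scaling or filters. Probes were named through GEO's platform annotation (692 with 1 gene, 870 with several, 1877 with none), of which 690 were found in the RefSeq table of TAIR10.1. No coordinates are given because the files name no build.

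Values of 0 were taken as missing and the others as log2. Column medians differed by 0.131, above the limit of 0.1, so quantile normalisation was applied. The 2947 probes with 3 or more values per group, 595 of them with 1 gene, were fitted with limma 3.58.1 in R 4.3.3, with Benjamini-Hochberg adjusted p and a threshold of 0.05. Figures used matplotlib 3.10.9. The fits were tested on simulated data with independent values for each array. That simulation cannot show the error rate for arrays that are alike by set or number.

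The replicate block was an alternative. All 4 same-numbered pairs deviated together from their group means (Pearson r 0.586 to 0.649 across probes), and each array matched its own number best. This pairing comes from the data, not the labels.

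The planned tests of the set difference and of its dependence on genotype are given as values only, since the choice of members used the same arrays. The members, sets and lists were chosen with earlier results of these data known. The genes named are the 3 members, other PPR genes by RefSeq text, the 3 nearest profiles of each, and a list of 34 organellar RNA loci. As that text names no measured PPR gene, OTP70, OTP85 and CRR21 were added by their symbols after seeing which genes are on the array.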

Additional observations from a re-analysis of the deposited data

Results flagged for a closer look

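WT replicate 2 stood apart from the other WT arrays in AT3G26630 by Dixon's criterion, with a normalised log2 value of -0.18 where the median of the remaining 3 was 0.25. This gap is small beside the difference of 1.57 between petc and WT, and without that array the difference was 1.49. In all 22 groups of 4 arrays were examined, 1 stood out, and chance gives about 1.1 for independent samples.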

How the results depend on the processing

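The alternatives for the values by set were added after seeing the data. The log2 difference of AT2G19280 was -1.07 with median centring, -1.03 as deposited, -1.06 with centring on the probes between the quartiles, -1.39 when fitted to numbers 1 and 2 and -1.15 when fitted to numbers 3 and 4. The difference of AT3G26630 was 1.76 as deposited. These moved by more than the pooled SD within groups, which was 0.16 for AT3G26630 and 0.11 for AT2G19280 on the log2 scale, and the cause was not tested. Without each array in turn AT3G26630 had 1.49 to 1.65, AT2G19280 -1.33 to -1.24 and AT4G04370 0.19 to 0.28.

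With the replicate block 1374 probes were called, 273 of them with a single gene, and with the set as a block 1358 and 264. The block brought AT4G04370 past the threshold and changed the call of neither AT3G26630 nor AT2G19280. With arrays of one group and set treated as correlated (consensus correlation 0.674) 345 and 55 were called, AT3G26630 and AT2G19280 among them. With their means, 2 against 2 and the set not blocked, limma called 0 of 2962 probes and 0 of 599 single-gene probes. It called 0 of the 5 PPR genes recognised here. An unadjusted p below 0.05 was seen for 584 of the probes and 97 of the single-gene probes. No such count is given for the PPR genes, as 3 of the 5 were chosen on this contrast. Without each array in turn 630 to 729 probes, 108 to 137 single-gene probes and 2 to 2 PPR genes were called.

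The change between sets of the difference between petc and WT was 0.120 for AT2G19280 with median centring and 0.116 with centring on the probes between the quartiles, against 0.24. For AT3G26630 it was -0.44 to -0.041 without each array in turn, against -0.24, and the ends of that range came from leaving out WT replicate 1 and WT replicate 2. The set difference moved by less than the pooled SD for all 3 genes in every alternative run.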

Other observations

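Of 34 loci listed for organellar RNA handling, such as editing cofactors, RNA-binding proteins, nucleases, splicing factors and sigma factors, 1 had a single-gene probe. This was AT1G53260, with 0.325, 0.328, 0.350 and 0.291 in WT and 0.294, 0.292, 0.364 and 0.299 in petc. The groups overlapped, and the log2 difference was -0.10 ± 0.11 (petc minus WT, SE, limma adjusted p = 0.551). The labels name no tissue. Of 9 nuclear photosynthesis loci listed as a check for green tissue 5 were measured. Relative to the array median of values above 0, LHB1B2 lay at 49.9 to 87.1 and PSBW at 45.1 to 73.1. PSAN lay at 10.9 to 14.7, PSBY at 2.98 to 3.80 and PRK at 1.48 to 4.97. The tissue was not tested further. Of these 5 genes limma called 1 higher and 1 lower in petc, too few to set against the 11.1% and 13.9% of all single-gene probes.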
